A study of Mus musculus with 4 samples.

Results

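The Polycomb repressive complex genes described here are *Ezh1*, *Ezh2*, *Eed*, *Suz12*, *Jarid2*, *Rbbp4*, *Rbbp7*, *Bmi1*, *Ring1* and *Rnf2*, 10 of the 21878 genes of the mRNA data. They were chosen by name, and the 34 transcripts listed for them, of 75959 in all, were summed per gene. C3H10T1/2 is a mouse mesenchymal stem cell (MSC) line from embryos of the C3H strain, and 5-AZA (5-azacytidine) is an analogue of cytidine which blocks DNA methyltransferases once built into DNA. The groups were 2 untreated samples, replicates 1 and 2, and 2 samples given 20 μM 5-AZA for 72 hours and then kept in fresh medium for 21 days, replicates 101 and 102. No genetic change separates the groups, all samples come from 1 cell line, and the labels give no culture time for the untreated samples, so treatment and time in culture cannot be told apart. The paper calls the samples of a group biological repeats and does not say whether they were separate cultures, so p-values measure the spread between these samples only.

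Polycomb proteins keep genes silent by modifying histones. Polycomb repressive complex 2 (PRC2) methylates histone H3 at lysine 27 through the paralogous enzymes EZH2, which is typical of dividing cells, and EZH1, which persists in resting and differentiated cells, with EED and SUZ12 as core partners, RBBP4 or RBBP7 as histone binders and JARID2 as an accessory subunit. Polycomb repressive complex 1 (PRC1) adds ubiquitin to histone H2A through RING1 or RNF2 (RING1B), each paired with a PCGF protein such as BMI1 (PCGF4). In muscle precursors EZH2 is known to hold muscle genes silent and its level is known to fall during differentiation.

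Cells in both groups expressed mesenchymal genes, with 9 of 10 markers above the limit for testing, a mean of 0.1 FPKM, and a summed level of 1151 to 1240 FPKM, while *Nt5e* was listed at 0 in both untreated samples and *Thy1* had 0.578 and 0.785 FPKM in untreated and 10.4 and 14.2 FPKM in 5-AZA samples. FPKM (fragments scaled to transcript length and to the sequenced fragments) allows levels to be compared between genes. The 10 skeletal muscle markers summed to 1.44 and 1.02 FPKM in untreated samples and to 733 and 1134 FPKM in 5-AZA samples, and the 6 adipocyte markers to 45.3 and 30.1 against 1094 and 1504 FPKM. The largest log2 fold changes were those of *Mylpf* (0.392 and 0.376 against 353 and 517 FPKM) and *Acta1* among the muscle genes and of *Cidec* and *Plin1* among the adipocyte genes. The 10 haematopoietic, endothelial and epithelial markers summed to 2.17 and 2.37 against 18.6 and 24.2 FPKM. Of the 6 tested, 4 were called higher (limma), against 1724 of all 13199 genes tested. Under quantile normalization 1 of the 6 was higher and 1 was lower at an adjusted p below 0.05 (limma), against 1782 and 2508 of all 13199 genes. *Krt8*, an epithelial keratin, had 0.395 and 0.379 FPKM in untreated and 15.3 and 19.4 FPKM in 5-AZA samples and made up most of the 5-AZA sums. The epithelial gene *Cdh1*, named after its values were seen, went the other way. It had 0.4995 and 0.4972 FPKM in untreated and 0.157 and 0.367 FPKM in 5-AZA samples. Its log2 fold change of -0.79 did not pass (limma, adjusted p = 0.174). The macrophage gene *Cd68* had 1.16 and 1.47 against 2.27 and 3.69 FPKM. *Cdh5* and *Epcam* reached at most 0.484 and 0.301 FPKM and passed the limit through the 5-AZA samples alone. The number called is thus no result about the list. *Adgre1*, *Cd3e* and *Kdr*, markers of macrophages, T cells and endothelium, were listed at 0 in all 4 samples. The other endothelial genes of the list were higher in the 5-AZA samples. *Cdh5* had 0 and 0.00622 against 0.484 and 0.211 FPKM. *Pecam1*, named after its values were seen, had 0.0807 and 0.0233 against 0.169 and 0.193 FPKM and did not pass. Transcripts of muscle and adipocyte cells were thus present beside the mesenchymal ones in the 5-AZA samples. In bulk RNA fewer cells of a type and less RNA per cell cannot be told apart. The RPM steps of the circRNA values put the libraries at 92903364 to 93920706 reads. FPKM keeps no count, so the depth behind each mRNA value is unknown.

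After 5-AZA, 2 of the 10 Polycomb genes were lower, *Ezh2* and *Bmi1*, and none was higher (limma on log2 values, adjusted p below 0.05). Over all 13199 genes tested, 5.93% were lower and 18.6% were higher at this threshold. In the group means *Ezh2* fell by 38.8% and *Bmi1* fell by 20.4%. None of the 10 passed the threshold together with a change over 2-fold, as 14.4% of all genes did. All 10 were above the limit for testing. The log2 fold change was below 0 for 8 of the 10, against 5914 of all 13199 genes. Its median was -0.20 against 0.05 over all genes tested. Under quantile normalization 9 of the 10 were below 0, *Jarid2* changing its sign, and the medians were -0.27 and -0.12. Both 5-AZA samples lay below both untreated samples for 6 of the 10 genes, against 25.4% of all genes, and above them for 1, against 36.8%.

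**Figure D1:**
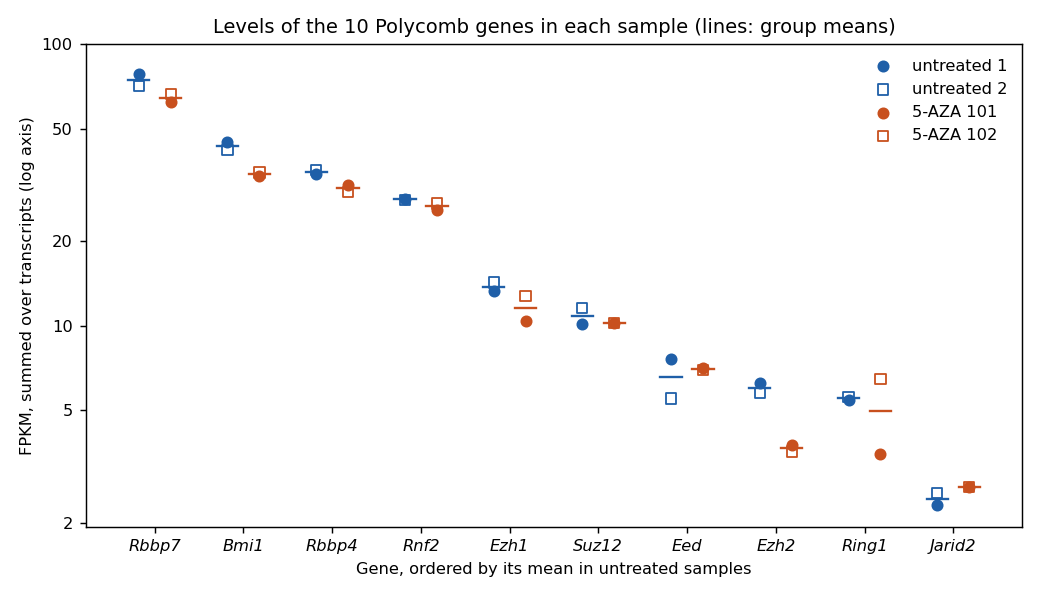
The plot gives the level of each Polycomb gene in FPKM on a log axis in the 2 untreated samples (blue) and the 2 5-AZA samples (orange), with lines at the group means. *Ezh2* stands at 6.25 and 5.78 FPKM in untreated samples and at 3.78 and 3.57 FPKM in 5-AZA samples, and the 5-AZA points of *Ring1* lie on both sides of its untreated points.

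The levels spanned a wide range. In untreated samples *Rbbp7* was the most abundant of the 10 at 74.7 ± 5.00 FPKM (SD, n = 2), above the level of 94.8% of the genes tested. It was followed by *Bmi1*, *Rbbp4*, *Rnf2*, *Ezh1*, *Suz12*, *Eed*, *Ezh2*, *Ring1* and *Jarid2*, the last at 2.43 ± 0.174 FPKM and above 31.1% of the genes. In untreated samples the values of neighbours in this order overlapped only for *Eed* and *Ezh2*. In 5-AZA samples *Ezh2* moved from rank 8 to rank 9 and its values lay between the 2 values of *Ring1*, and *Rbbp7* remained the highest and *Jarid2* the lowest.

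*Ezh2*, the main H3K27 methyltransferase of dividing cells (chromosome 6, 47530274 to 47595270, minus strand, GRCm38), had 6.25 and 5.78 FPKM in the untreated samples and 3.78 and 3.57 FPKM in the 5-AZA samples. Both 5-AZA values lay well below both untreated values, and the groups did not overlap. Its log2 fold change was -0.69 (SE 0.16, 95% interval -1.05 to -0.33, adjusted p = 0.0125, limma). The fall stayed below 2-fold, and its adjusted p was 0.0599 when no limit was set on low values, 0.0534 when only curated transcripts were summed, and 0.0846, 0.108 and 0.128 without untreated replicate 1, 5-AZA replicate 101 and 5-AZA replicate 102.

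*Ezh1*, its paralogue (chromosome 11, 101191115 to 101226463), had 13.2 and 14.2 FPKM in untreated and 10.4 and 12.8 FPKM in 5-AZA samples. Both 5-AZA values were below the untreated ones, one of them only slightly, and the log2 fold change of -0.25 (SE 0.14, 95% interval -0.57 to 0.07) did not pass the test (limma, adjusted p = 0.239). *Ezh1* was the more abundant enzyme gene throughout. The ratio of *Ezh1* to *Ezh2*, which does not depend on the scaling of a library, was 2.12 and 2.46 in untreated samples and 2.74 and 3.57 in 5-AZA samples. Both 5-AZA ratios were above both untreated ratios. The difference of 0.45 in log2 had an exact two-sided permutation p = 0.333, which is the smallest that 2 samples against 2 can give, and the Benjamini-Hochberg value over the 3 ratios tested was 1.

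The genes of the other PRC2 core partners did not pass the test. *Suz12*, the scaffold of the complex, had 10.2 and 11.5 FPKM in untreated and 10.2 and 10.2 FPKM in 5-AZA samples (log2 fold change -0.08, 95% interval -0.37 to 0.21). *Eed*, whose protein binds methylated H3K27, had 7.63 and 5.52 FPKM and then 7.06 and 6.94 FPKM (log2 fold change 0.11, 95% interval -0.30 to 0.51). For both genes the 5-AZA values lay within the range of the untreated values. Without untreated replicate 2 the log2 fold change of *Eed* was -0.12 and that of *Suz12* was 0.0079, so neither direction is settled. *Jarid2*, which helps to bring PRC2 to DNA, had 2.30 and 2.55 FPKM in untreated and 2.68 and 2.67 FPKM in 5-AZA samples. It was the 1 gene of the 10 with both 5-AZA values above the untreated values, but its log2 fold change of 0.14 (SE 0.19) was smaller than its error and became -0.17 under quantile normalization.

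The histone binders *Rbbp4* and *Rbbp7* also serve other chromatin complexes. *Rbbp4* had 34.7 and 35.7 FPKM in untreated and 31.7 and 29.9 FPKM in 5-AZA samples (log2 fold change -0.19, SE 0.10, limma, adjusted p = 0.211). *Rbbp7*, on the X chromosome, had 78.2 and 71.1 FPKM and then 62.1 and 66.5 FPKM (log2 fold change -0.22, SE 0.10, limma, adjusted p = 0.162). In both genes the groups did not overlap. *Rbbp7* passed when each sample was centred on its median (limma, adjusted p = 0.0181) and under quantile normalization (limma, adjusted p = 0.0286). The ratio of *Rbbp7* to *Rbbp4* was 2.26 and 1.99 in untreated and 1.96 and 2.22 in 5-AZA samples, a log2 difference of -0.02 (exact two-sided permutation p = 0.667). *Rbbp4* overlaps the end of *Sync*, which had 2.20 and 2.31 FPKM and then 6.19 and 6.09 FPKM, and *Rbbp7* overlaps the end of *Txlng*. Whether reads were counted by strand is not given in the sources used here, nor is how reads that match both paralogues were shared.

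Of the PRC1 genes, *Bmi1* (chromosome 2, 18677018 to 18686629, plus strand) had 44.7 and 41.9 FPKM in untreated and 34.0 and 35.0 FPKM in 5-AZA samples. The replicates were close to each other and the groups did not overlap. Its log2 fold change was -0.33 (SE 0.10, 95% interval -0.55 to -0.10, adjusted p = 0.0406, limma), close to the threshold, and it did not pass in 7 of 12 alternatives, among them each fit that left out 1 of the 4 samples (adjusted p from 0.131 to 0.337).

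The 2 ubiquitin ligase genes differed in spread. *Rnf2*, the ligase gene with the higher level, had 28.2 and 27.9 FPKM in untreated and 25.8 and 27.2 FPKM in 5-AZA samples (log2 fold change -0.08, 95% interval -0.31 to 0.15). *Ring1* had 5.45 and 5.60 FPKM in untreated samples but 3.49 and 6.47 FPKM in 5-AZA samples. Its 5-AZA replicates lay on either side of the untreated ones, and its log2 fold change of -0.21 (SE 0.26) became 0.23 without 5-AZA replicate 101. The ratio of *Ring1* to *Rnf2* was 0.193 and 0.201 in untreated and 0.135 and 0.238 in 5-AZA samples (exact two-sided permutation p = 1).

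The promoters of the 2 genes that fell and of *Ezh1* are shown because 5-AZA acts on DNA methylation, which in mammals sits mainly on CpG dinucleotides, and because *Ezh2* is a known target of the cell cycle factors of the E2F family. Each runs 5′ to 3′ on the strand of its gene from 250 bases before to 50 bases after a RefSeq start, in GRCm38.p6. The start used for *Ezh2*, at 47595030, lies 240 bases inside the outer end of the gene given above, and those of *Ezh1* and *Bmi1* lie at the gene's end. Capitals mark a match to an E2F-type motif, searched on both strands as TTTCCCGC, TTTCGCGC, TTTGCCGC or TTTGGCGC.
Ezh2 promoter, chr6:47594981-47595280, minus strand: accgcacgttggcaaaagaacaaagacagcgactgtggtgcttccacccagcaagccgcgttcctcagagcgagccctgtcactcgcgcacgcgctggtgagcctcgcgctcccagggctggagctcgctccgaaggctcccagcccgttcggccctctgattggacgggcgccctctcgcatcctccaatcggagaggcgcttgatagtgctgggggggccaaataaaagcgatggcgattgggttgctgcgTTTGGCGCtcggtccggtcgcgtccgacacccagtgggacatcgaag
Ezh1 promoter, chr11:101226414-101226713, minus strand: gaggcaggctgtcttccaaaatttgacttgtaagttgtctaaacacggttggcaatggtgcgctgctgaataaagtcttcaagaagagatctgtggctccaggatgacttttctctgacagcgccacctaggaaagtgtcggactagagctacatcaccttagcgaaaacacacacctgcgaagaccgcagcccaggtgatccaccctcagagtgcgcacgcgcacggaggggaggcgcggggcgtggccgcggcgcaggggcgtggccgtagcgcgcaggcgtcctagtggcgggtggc
Bmi1 promoter, chr2:18676768-18677067, plus strand: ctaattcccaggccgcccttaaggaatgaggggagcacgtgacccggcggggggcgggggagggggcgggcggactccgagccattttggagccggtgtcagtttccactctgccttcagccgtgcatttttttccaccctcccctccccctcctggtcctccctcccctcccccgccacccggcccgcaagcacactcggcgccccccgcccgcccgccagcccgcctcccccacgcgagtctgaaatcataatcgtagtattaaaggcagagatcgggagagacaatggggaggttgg
The *Ezh2* promoter held 1 match, which begins at base 4 counted from that inner start, and those of *Ezh1* and *Bmi1* held none. Of the 10 genes *Suz12* was the other one with a match, at position -219. A match was found in 2.265% of 32851 promoters of this length. The *Ezh2* window held 31 CpG dinucleotides, that of *Ezh1* 23 and that of *Bmi1* 23. The windows of all 10 genes held between 17 and 41, against a median of 7 over all promoters. Each motif holds a CpG, so the share of matches over all promoters is not a like background for windows with this many. Methylation and factor binding were not measured in these samples, and a match is a description of the sequence.

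The transcripts of each gene were then compared. Of the 34 transcripts 14 are curated by RefSeq and 20 are predicted, 21 reached the limit for testing, and 0 passed the test (1 at an unadjusted p below 0.05, NM_007971.2 of *Ezh2*), while 2.62% of the 35557 transcripts tested passed (limma). The log2 fold change was below 0 for 17 of the 21, which belong to only 10 genes. The share below 0 over all transcripts tested was not counted.

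For *Ezh2*, 3 of 11 transcripts held at least 10% of the gene. The curated transcript NM_007971.2 had 3.85 and 3.55 FPKM in untreated and 2.04 and 2.11 FPKM in 5-AZA samples (log2 fold change -0.80, limma, adjusted p = 0.213). The predicted transcript XM_006505523.1 had 1.01 and 1.06 FPKM and then 1.02 and 0.743 FPKM, and XM_006505525.1 had 0.905 and 0.577 FPKM and then 0.424 and 0.532 FPKM. NM_007971.2 thus made up 61.5% of the untreated and 56.4% of the 5-AZA level of the gene, and XM_006505523.1 made up 17.2% and 24.0%. The lower level of the gene after 5-AZA lay mostly in NM_007971.2.

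*Bmi1* was split almost evenly between 2 transcripts. XM_006497311.2 had 19.2 and 23.4 FPKM in untreated and 16.7 and 17.0 FPKM in 5-AZA samples, and NM_007552.4 had 24.2 and 17.6 FPKM and then 16.6 and 17.1 FPKM. In both transcripts the 5-AZA samples lay below the untreated ones. Their shares moved in opposite ways between the untreated replicates, while the sum for the gene stayed close.

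The other genes were carried mostly by 1 curated transcript. NM_007970.3 held 81.0% of *Ezh1* in untreated and 83.7% in 5-AZA samples, with XM_006532178.3 holding the rest. NM_199196.2 held 91.0% and 84.1% of *Suz12*, and the remaining NM_001163018.1 had 1.63, 0.332, 1.84 and 1.41 FPKM in untreated replicates 1 and 2 and 5-AZA replicates 101 and 102. The low value of untreated replicate 2 sets most of that difference in shares. NM_021876.3 held 88.7% and 91.6% of *Eed* with XM_006507341.2 beside it, NM_001205043.1 held 86.1% and 82.8% of *Jarid2*, and NM_011277.2 held 91.3% and 91.5% of *Rnf2*. *Rbbp4*, *Rbbp7* and *Ring1* had 1 transcript each.

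Circular RNAs (circRNAs), which form when an exon end is spliced back to an earlier exon start, gave a second readout of these loci. Of 4295 circRNAs 15 had 1 of the 10 genes as host, 8 of them *Ezh2*. The values are RPM (back-spliced reads scaled to the reads of the library), and each was a whole multiple of a step taken as 1 read, so they are given as reads. *Ezh2* circRNAs summed to 47 and 39 reads in untreated and to 25 and 28 reads in 5-AZA samples, and all circRNAs to 13282 and 13388 against 10905 and 10448 reads. Per 10000 circRNA reads this was 35.4 and 29.1 against 22.9 and 26.8 for *Ezh2*. The *Ezh2* share was lower in both 5-AZA samples than in both untreated samples.

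The 5 circRNAs of these hosts detected in at least 2 samples were tested with limma, and 0 were called, with 1 at an unadjusted p below 0.05 (circRNA_3411). Likewise 0% of the 1360 circRNAs tested were called, with a smallest adjusted p = 0.119 and 251 of them at an unadjusted p below 0.05 (limma). The paper, with a count model, reports up- and downregulated circRNAs between these groups. The limma result thus does not show that no circRNA differed. circRNA_3408 of *Ezh2* (chromosome 6, 47540677 to 47577667) had 20 and 25 reads in untreated and 15 and 8 reads in 5-AZA samples. circRNA_3411, which shares its upper end, had 9 and 10 reads and then 3 and 3 reads. circRNA_3413, with the same upper end, had 7 and 4 reads and then 3 and 17 reads, so the *Ezh2* circRNAs did not all lie lower. circRNA_3610 of *Eed* had 6 and 7 reads and then 3 and 4 reads, and circRNA_0196 of *Rnf2* had 12 and 8 reads and then 6 and 3 reads. In 4 of the 5 both 5-AZA samples lay below both untreated samples, against 24.9% of all circRNAs tested. These counts are small.

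**Figure D2:**
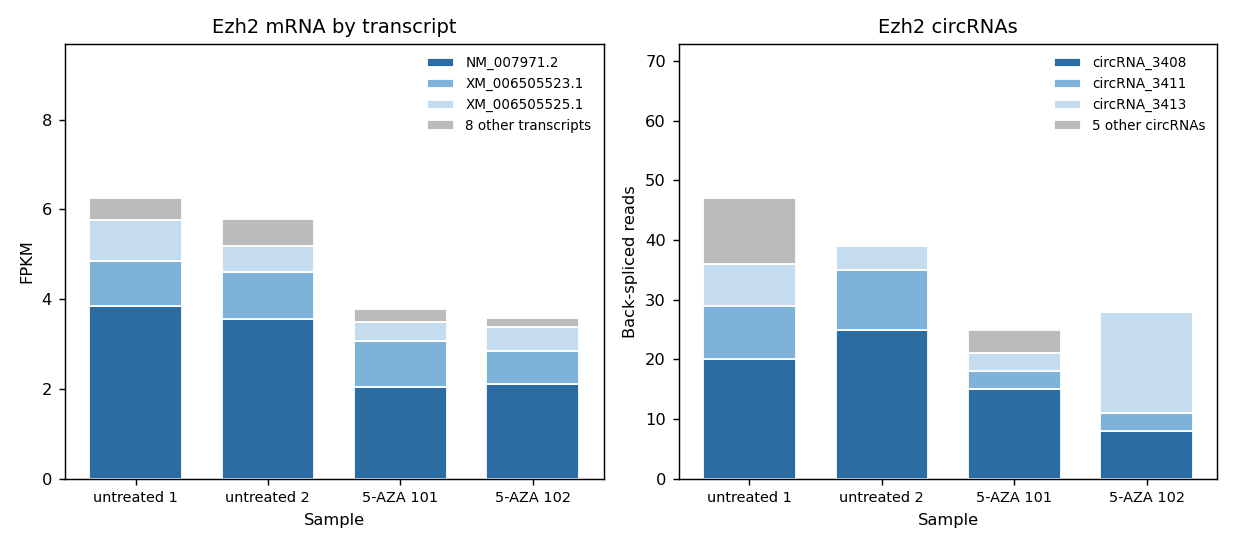
Stacked bars give, for each of the 4 samples, the *Ezh2* mRNA level in FPKM by transcript (left) and the back-spliced reads of *Ezh2* circRNAs (right). The mRNA bars of 5-AZA samples end at 3.78 and 3.57 FPKM, below both untreated bars, and circRNA_3413 takes 17 of the 28 reads of 5-AZA replicate 102.

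Long noncoding RNAs (lncRNAs) that overlap the 10 genes were also examined, a choice made after the data were seen. Of 36 such lncRNAs 24 reached the limit for testing. The log2 fold change was below 0 for 21 of the 24, against 15164 of all 24075 lncRNAs tested. Of the 24, 0 passed the test (4 at an unadjusted p below 0.05), while 1.14% of the 24075 were called (limma). For 11 of the 24 both 5-AZA samples lay below both untreated samples, against 31.7% of all lncRNAs. Their median log2 fold change was -0.40 against -0.23 over all lncRNAs. Most, 19 of 24, lie on the strand of the gene, and there the reads of gene and lncRNA cannot be told apart.

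Other subunits of the complexes passed the test about as often as genes did in general. Of 29 tested, 5 were higher and 2 were lower, against 18.6% and 5.93% of all genes, with a median log2 fold change of -0.05. Among PRC2 accessory subunits (5 tested, 1 higher, 1 lower, median 0.05) *Phf19*, whose protein reads methylated H3K36, had 0.200 and 0.192 FPKM in untreated and 0.408 and 0.810 FPKM in 5-AZA samples (log2 fold change 1.20, SE 0.37, limma, adjusted p = 0.0480). This rise, from a low level, had an adjusted p above 0.05 in most alternatives and became -0.0081 under quantile normalization. Among canonical PRC1 subunits (10 tested, 1 higher, 1 lower, median -0.11) none changed over 2-fold. *Cbx7* rose with a log2 fold change of 0.81 and *Cbx6* fell with one of -0.53, while *Cbx8* had 0.16 and *Cbx2* -0.34 without passing. *Cbx7* did not pass in 7 of 12 alternatives, at 0.24 under quantile normalization, and *Cbx6* did not pass in 5. CBX proteins read the H3K27 methyl mark for PRC1. Under quantile normalization 0 of these 10 were higher and 5 were lower, against 1782 and 2508 of all 13199 genes.

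Among variant PRC1 subunits (14 tested, 3 higher, 0 lower, median -0.10) *E2f6*, a repressor of the E2F family that joins a variant PRC1 complex, had 5.00 and 3.69 FPKM in untreated and 11.6 and 12.0 FPKM in 5-AZA samples. The groups were far apart (log2 fold change 1.43, SE 0.17, limma, adjusted p = 0.000383), and the value ranged from 1.22 to 1.65 over the alternatives. It did not pass in 3 of 12, with no limit on low values (limma, adjusted p = 0.0838) and without 5-AZA replicate 101 or 102 (0.113 and 0.126). *Yaf2* (0.54) and *Pcgf5* (0.86) rose as well, and with *Aebp2* of PRC2, which fell with a log2 fold change of -0.41, they are named after their values were seen. Of 12 alternatives *Yaf2* did not pass in 4, *Pcgf5* in 5 and *Aebp2* in 7, and *Pcgf5* was at 4.36 with curated transcripts only, at 0.58 without 5-AZA replicate 102 and at 0.63 under quantile normalization. Under quantile normalization 2 of the 14 were higher and 3 were lower, against 1782 and 2508 of all 13199 genes.

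**Figure D3:**
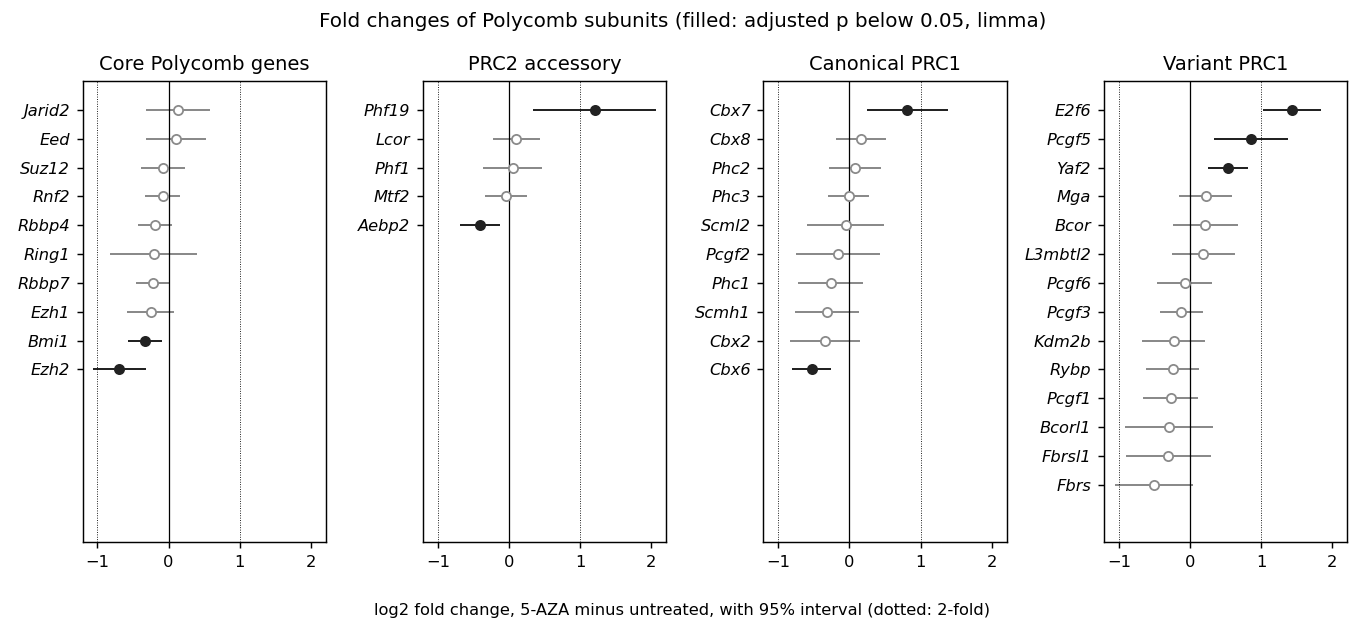
The panels show the log2 fold change of 5-AZA against untreated samples with its 95% interval for the 10 Polycomb genes and the 29 other subunits tested, with filled points for an adjusted p below 0.05 and dotted lines at 2-fold. *Ezh2* at -0.69 and *Bmi1* at -0.33 are the filled points among the 10, *E2f6* at 1.43 is the highest point, and *Phf19* at 1.20 does not stay above 0 under quantile normalization.

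Few of the genes that oppose the complexes or share their subunits passed the test. Of 7 erasers of Polycomb marks tested 0 passed (limma, median -0.28, 3 at an unadjusted p below 0.05). The H2A deubiquitinase genes *Mysm1* and *Usp16* had log2 fold changes of 0.64 and 0.08, *Asxl2* had -0.37 and the H3K27 demethylase gene *Kdm6a* -0.32. Of 12 Trithorax and COMPASS subunits, most of them from complexes that place activating H3K4 methylation, 1 fell, against 5.93% of all genes. This was *Kmt2d* (log2 fold change -0.79, limma, adjusted p = 0.0310), which did not pass in 6 of 12 alternatives, among them each fit that left out a sample (adjusted p up to 0.197) and curated transcripts only (-0.52, adjusted p = 0.444), and *Setd1b* (-0.55), *Ash2l* (0.21) and *Kmt2b* (0.18) did not pass. With each sample centred on its median, 3 genes were lower in each of these lists, against 1850 of all 13199 genes. Of 16 subunits of other complexes that use RBBP4 or RBBP7, such as NuRD, Sin3 and CAF-1, 0 passed under any of the 3 scalings (limma, median -0.03, 2 at an unadjusted p below 0.05), with *Sin3b* at 0.40, *Mta3* at 0.35, *Chaf1b* at -0.56 and *Mbd3* at -0.17.

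Of 22 genes that textbooks give as repressed by Polycomb in many cell types, 17 were below the limit for testing. Those called were *Hoxa9* and *Pax3*, which had untreated means under 0.1 FPKM and reached the limit through their 5-AZA values. Their number is thus no result about the list. The homeobox gene *Hoxa9* had 0.108 and 0.0576 FPKM in untreated and 0.975 and 1.35 FPKM in 5-AZA samples (log2 fold change 2.78, limma, adjusted p = 0.000440). *Pax3*, a gene of muscle and neural crest precursors, had 0.0661 and 0.00865 FPKM and then 0.808 and 0.812 FPKM (log2 fold change 2.76, limma, adjusted p = 0.000713). Neither passed with no limit on low values or without 5-AZA replicate 101 or 102 (adjusted p from 0.0508 to 0.0882). These folds are on the log2(FPKM + 0.1) scale, which understates changes of low genes. *Cdkn2a*, *Cdkn2b*, *Pax7*, *Hoxa13*, *Hoxd13*, *Tbx5*, *Isl1*, *Neurog2*, *Olig2*, *Foxa2* and *Wt1* were listed at 0 in all 4 samples. Histone marks were not measured here.

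*Ezh2* and *Bmi1* were next set beside proliferation genes, since *Ezh2* is known to follow the cell cycle. Of 20 such genes 2 fell and 0 rose, against 5.93% and 18.6% of all genes, with a median log2 fold change of -0.22 against 0.05. For 11 of the 20 both 5-AZA samples lay below both untreated samples, against 25.4% of all genes. *Ccna2* (-0.49) and *Tk1* (-0.45) fell, while *Rrm2* had 0.14 and *Aurka* 0.07. *Ccna2* and *Tk1* each did not pass in 6 of 12 alternatives (adjusted p up to 0.293 and 0.257). The 20 genes summed to 462 and 372 FPKM in untreated and to 357 and 351 FPKM in 5-AZA samples, and the 10 Polycomb genes to 231 and 222 against 191 and 201 FPKM. When each sample was centred on its median, 7 of the 20 were lower, against 1850 of all 13199 genes under that scaling. Of 10 genes of E2F factors and pocket proteins *E2f1* fell (log2 fold change -0.57, limma, adjusted p = 0.0253) and *E2f2* rose from a low level (1.61, limma, adjusted p = 0.0128). *E2f1*, named after its values were seen, did not pass in 5 of 12 alternatives, and *E2f2* did not pass in 6 of 11 and was at 0.45 under quantile normalization (adjusted p = 0.307). *E2f1* and *Ezh2* were lower by similar log2 changes. The part of proliferation, of E2F factors and of the muscle, adipocyte and other cells in the lower *Ezh2* level was not tested.

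**Figure D4:**
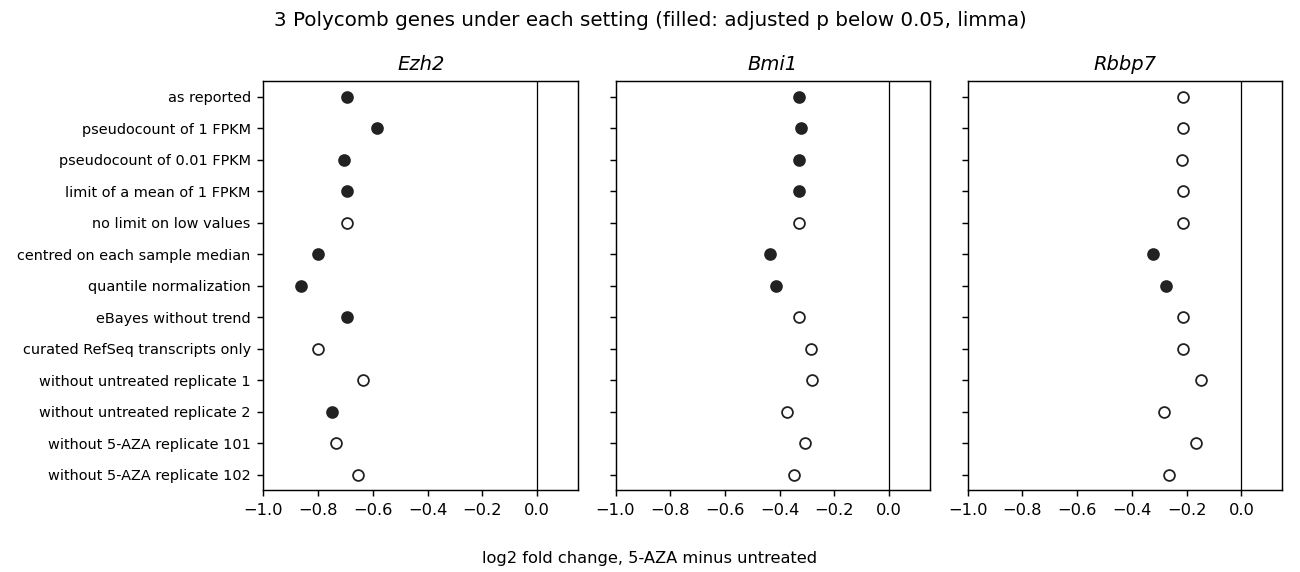
Each row is a processing setting and each point the log2 fold change of *Ezh2*, *Bmi1* or *Rbbp7*, filled where the adjusted p was below 0.05. All points lie below 0, The adjusted p of *Ezh2* stays below 0.05 in 7 of 12 alternatives and that of *Bmi1* in 5, and that of *Rbbp7* falls below 0.05 in 2.

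Over the 12 alternatives the log2 fold change ranged from -0.86 to -0.58 for *Ezh2* and from -0.44 to -0.28 for *Bmi1*. The limits and the trend do not alter a fold change. Since the groups did not overlap for either gene, leaving out a sample could not turn its sign.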

How the data were processed

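RNA was measured in 2 untreated and 2 5-AZA samples, grouped by their labels. Libraries were stranded and depleted of ribosomal RNA. The submitters' processing notes list Trimmomatic, HISAT2, Bowtie2 2.2.9 and eXpress 1.5.1, without their roles, and the mm9 build. The authors deposited FPKM values per mRNA and lncRNA transcript and RPM values per circRNA. Of 2356 host transcripts of circRNAs, 69.9% shared a start or end exactly with GRCm38.p6 genes, so positions are given in GRCm38.

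Transcripts were summed per gene, and log2(FPKM + 0.1) of genes with a mean of at least 0.1 FPKM was fitted with limma 3.58.1 (eBayes with trend) in R 4.3.3, with Benjamini-Hochberg adjustment over all genes. A called feature also changed over 2-fold. Transcripts and lncRNAs were treated alike, circRNAs with a pseudocount of 0.0213 RPM where detected in at least 2 samples. All RPM values (100%) fell on whole steps, within 0.001 of a read, if the smallest value of a sample stands for 2 reads. The paper used DESeq, a count model that FPKM does not permit. The fits were tested on simulated data. Paralogue ratios were compared by exact permutation.

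The members and lists were chosen with earlier results of these data known. Of each list the text names every called gene or, with none or more than 4 called, up to 2 with the largest rise and 2 with the largest fall, and transcripts holding at least 10% of a gene. Markers and list genes at 0 are named as well, and other genes named outside this rule are marked in the text. Results on 2 genes of the lists are not reported here, and the list counts and medians leave them out. *Epop* and *Ezhip* were not matched by name. Promoter sequences are from RefSeq, with all 10 genes matched and 2 entries for *Jarid2*. Plots were drawn with matplotlib 3.10.9.

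Other pseudocounts, limits, scalings and transcript sets, eBayes without trend and the omission of each sample were tried as alternatives.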

Additional observations from a re-analysis of the deposited data

How the results depend on the processing

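With 2 samples per group, leaving 1 out leaves a lone sample that is assumed to vary like the other group, and a gene that did not pass has not been shown to be unchanged. With the adjusted p alone and no limit on the fold change, 2 Polycomb genes were called in place of 0. The 2 genes at an adjusted p below 0.05 became 0 with no limit on low values, 0 with curated transcripts only, 1 (*Ezh2*) without the trend, and 0 to 1 when a sample was left out, *Ezh2* remaining without untreated replicate 2. Centring and quantile normalization gave 3, with *Rbbp7* added.

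Quantile normalization turned *Jarid2* to -0.17, *Phf19* to -0.0081, *Kmt2b* to -0.54 and *Aurka* to -0.026. Centring turned *Usp16* to -0.028 and *Aurka* to -0.035, and curated transcripts turned *Mysm1* to -0.34. Leaving out samples gave ranges of -0.12 to 0.34 for *Eed*, -0.17 to 0.0079 for *Suz12*, -0.65 to 0.23 for *Ring1*, -0.037 to 0.32 for *Rrm2* and -0.048 to 0.19 for *Aurka*, with untreated replicate 2 or, for *Ring1*, 5-AZA replicate 101 turning the sign. The cause was not tested.

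Over all genes 2449 were higher and 783 lower, against 2313 and 1850 with centring, which moved the median log2 fold change from 0.05 to -0.06, and 1782 and 2508 with quantile normalization, which moved it to -0.12. The log2 difference of the *Ring1* to *Rnf2* ratio ranged from -0.54 to 0.28 and that of *Rbbp7* to *Rbbp4* from -0.12 to 0.069 when a sample was left out. The alternatives for list genes were added after seeing the data. A count test of circRNA reads was intended and not run. No paired analysis was possible because the groups share no replicate number.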
